A study of Mus musculus with 60 samples.

Results

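Calf muscle of Largemyd mice was compared with calf muscle of C57Bl/6 mice at 6 months of age, on 10 of the 60 arrays of the series. The members were taken by title and age: the 5 arrays of 6 months whose titles begin with LG, and the 5 of the same age whose titles begin with C57BL. Each array holds the RNA of 1 animal, measured on an Affymetrix Mouse Gene 1.0 ST array. The whole series covers 4 lineages (C57Bl/6, Largemyd, Dmdmdx and Dmdmdx/Largemyd) at 21 days, 3 months and 6 months, with 5 arrays in each of the 12 groups. The question behind it is what distinguishes the dystroglycanopathy lines from the dystrophin-deficient line. The Largemyd group carries a recessive mutation that impairs glycosylation of alpha-dystroglycan, and the labels call it a model of dystroglycanopathy. The C57Bl/6 group is labelled as normal. Largemyd replicates 3, 4 and 5 have titles that begin with LGPL, a prefix the labels do not explain. Both groups were untreated and are labelled male, and the labels say neither whether they were littermates nor on which strain background the mutation was kept. The calf muscles were frozen and powdered whole, so each array holds fibres, immune cells, connective tissue, vessels and nerve together.

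Dystroglycan is a receptor in the fibre membrane. Its alpha subunit carries a long sugar chain that binds laminin in the basement membrane, and its beta subunit binds dystrophin inside the fibre. Where the chain is too short the fibre loses its hold on the matrix, and the muscle goes through cycles of fibre death, macrophage entry, regeneration and scarring. Calf muscle of the mouse is mostly fast-twitch, with fibres that depend on rapid calcium release and on glycogen.

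Values below are the deposited log2 expression values, so that a difference of 1 is a change of 2-fold. Differences are Largemyd minus C57Bl/6, with their standard error. A gene rose or fell where limma's moderated test, adjusted by the method of Benjamini and Hochberg over all 19938 genes, gave an adjusted p under 0.05. Values by array are always listed from replicate 1 to replicate 5, which is a name and not an order. The gene lists described below overlap in part. List counts against C57Bl/6 are to be read beside the shares of all genes, 15.4% that rose and 17.1% that fell. In bulk tissue, fewer cells of a type and less RNA per cell cannot be told apart.

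Several arrays went against the label male. Xist, the RNA that coats an inactive X chromosome, measured 10.81, 10.78, 5.54, 10.58 and 10.67 in the C57Bl/6 arrays and 5.57, 11.46, 11.28, 11.84 and 5.85 in the Largemyd arrays. It was high in C57Bl/6 replicates 1, 2, 4 and 5 and in Largemyd replicates 2, 3 and 4, and the Y-linked Eif2s3y, Kdm5d and Uty were low in the same 7 arrays. Marrow and erythroid genes lay 3.45 and 2.86 log2 units above the median of the 20 arrays of that age in C57Bl/6 replicate 3, and 1.75 and 1.24 above it in C57Bl/6 replicate 1. Genes of the B cell and lymph node list, called lymph node genes below, lay 2.81 above it in Largemyd replicate 2. In Largemyd replicates 1, 3, 4 and 5 they lay 1.22, 0.10, 1.54 and 1.04 above it. Many of these genes mark B cells, and a piece of node and B cells within the muscle cannot be told apart. Fibre genes were high in every array, as Acta1, the skeletal actin, shows with 13.84 to 13.94 in C57Bl/6 and 13.66 to 13.84 in Largemyd.

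At 6 months 6483 genes passed, 32.5% of those tested: 3076 (15.4%) rose in Largemyd and 3407 (17.1%) fell, with a median difference over all genes of -0.00. Of these, 403 (2.02%) rose and 212 (1.06%) fell by 2-fold or more. The 5 Largemyd arrays lay wholly above the 5 C57Bl/6 arrays for 1986 genes (9.96%) and wholly below them for 2486 (12.5%). With each array's median subtracted, 2320 rose and 4516 fell. With C57Bl/6 replicate 3 and Largemyd replicate 2, marked for marrow and lymph node, left out, 6608 genes passed, and with the Xist class as a block 6524. With the low-Xist arrays alone, 1 C57Bl/6 array (the one with marrow genes) against 2 Largemyd arrays, 661 passed.

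Among genes whose groups did not overlap the largest rise was in Ccl8 and the largest fall in Ostn. Ccl8, a chemokine that draws monocytes, measured 6.36, 6.05, 6.5, 6.60 and 6.32 in the C57Bl/6 arrays and 10.97, 10.30, 10.71, 9.45 and 9.31 in the Largemyd arrays. All Largemyd arrays stood above the highest control by more than 2 units, and the difference was 3.78 ± 0.38 (adjusted p = 2.7e-11), or 13.8-fold. At the other end Ostn, which encodes osteocrin, a peptide secreted by muscle that slows clearance of natriuretic peptides, measured 11.26, 11.13, 9.95, 11.07 and 11.48 in the C57Bl/6 arrays and 7.60, 7.09, 8.65, 7.54 and 8.20 in the Largemyd arrays. The groups did not overlap, and Ostn fell by 3.16 ± 0.26 (adjusted p = 2.4e-13), or 8.93-fold. The range over the Largemyd arrays was wider than that of the controls for Ccl8, and close to it for Ostn, where C57Bl/6 replicate 3 lay below the other controls.

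**Figure D1:**
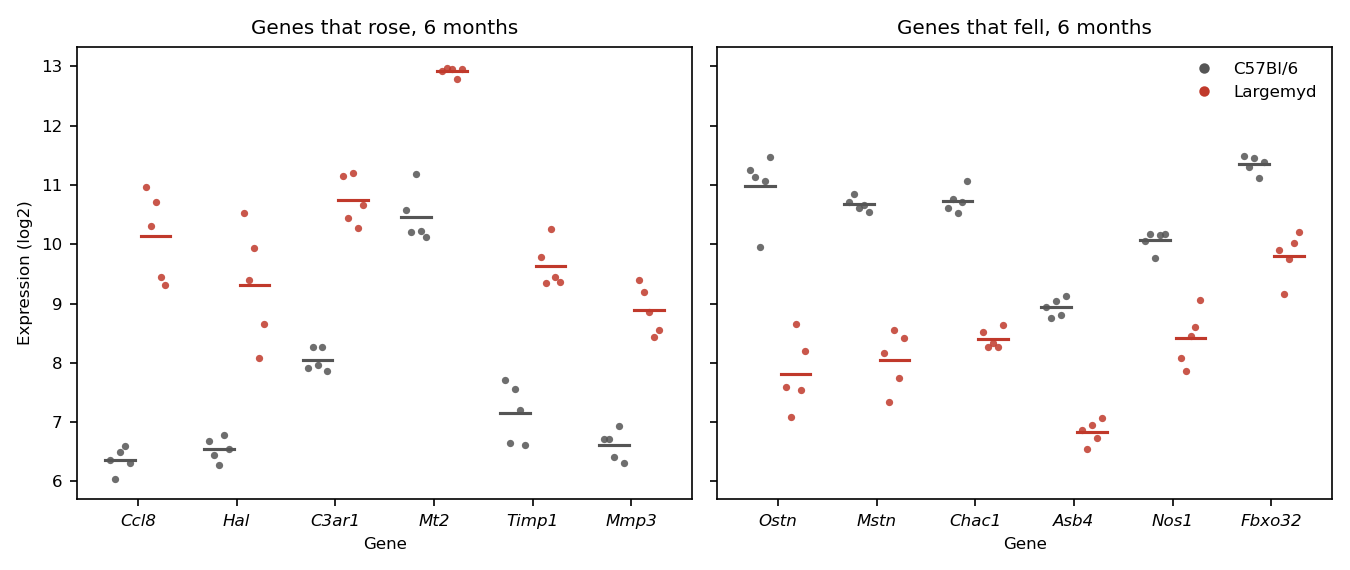
Log2 expression (vertical axis) of 6 genes that rose and 6 that fell, by array, in C57Bl/6 (grey) and Largemyd (red) at 6 months; each point is 1 array and each bar the mean of 5. For Ccl8 the Largemyd points lie between 9.31 to 10.97 and the control points between 6.05 to 6.60. No gene shown has overlapping groups, and all but Nos1 and Fbxo32 were chosen among such genes.

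Macrophage genes rose nearly as a whole. Of 36 markers 33 rose and none fell, with a median difference of 1.53 against -0.00 over all genes. The mean over the 36 genes lay between 7.46 and 8.56 in C57Bl/6 arrays and between 8.87 and 9.61 in Largemyd arrays. Cd68, a lysosomal protein of macrophages, measured 8.72, 8.25, 9.44, 8.14 and 8.09 in the C57Bl/6 arrays and 11.00, 10.69, 11.02, 9.63 and 10.72 in the Largemyd arrays, a difference of 2.08 ± 0.28 (adjusted p = 3.2e-08). Csf1r, the receptor for the growth factor that keeps macrophages alive, measured 8.96, 8.80, 9.16, 8.76 and 8.68 in the C57Bl/6 arrays and 10.77, 10.55, 10.57, 9.75 and 10.28 in the Largemyd arrays and rose by 1.51 ± 0.15. Adgre1, a surface receptor that marks mouse macrophages, rose by 2.04 ± 0.25, Ms4a7 by 2.47 ± 0.24, Ms4a6d by 2.34 ± 0.28, Ly86 by 2.18 ± 0.31 and C3ar1, the receptor for a complement fragment, by 2.70 ± 0.26. Gpnmb and Lgals3, both high in lipid-laden and phagocytic macrophages, rose by 2.10 ± 0.28 and 2.07 ± 0.26. Itgam, the integrin CD11b shared by macrophages and neutrophils, was among the 3 that did not pass, at 0.82 ± 0.35 (adjusted p = 0.069), with 7.22 to 9.08 in controls and 8.0 to 9.06 in Largemyd. With C57Bl/6 replicate 3 and Largemyd replicate 2 left out Itgam passed, at 1.15 (adjusted p = 0.0022). Glipr1, which is high in several myeloid cells, rose by 2.35 ± 0.37.

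Of 20 genes typical of resident tissue macrophages 14 rose, with a median of 0.85. Mrc1, the mannose receptor, measured 8.45, 8.58, 8.66, 8.38 and 8.34 in the C57Bl/6 arrays and 10.78, 10.11, 10.48, 9.78 and 9.96 in the Largemyd arrays and rose by 1.74 ± 0.16. Stab1, a scavenger receptor, rose by 1.47 ± 0.17, Vsig4, a complement receptor, by 1.98 ± 0.32, and Folr2 by 1.34 ± 0.24. Arg1 and Retnla, enzymes and secreted products of alternatively activated macrophages, were at 0.19 ± 0.26 and 0.26 ± 0.39 and did not pass. Of 20 neutrophil and marrow genes none rose or fell and their median was -0.87, with the high values in C57Bl/6 replicate 3. With the marked arrays left out 1 of them rose and their median was -0.15. At a lower bar of 1.5 log2 units for marks 3 rose, with a median of 0.06. With the marked arrays left out 34 of the 36 macrophage markers rose.

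Complement components rose with the macrophage genes, 13 of 18, with a median of 1.21. C1qa, C1qb and C1qc, the chains of the molecule that starts the classical pathway and products of macrophages, rose by 1.80 ± 0.17, 1.90 ± 0.17 and 1.94 ± 0.19. C1qb measured 9.82, 9.56, 10.19, 9.77 and 9.59 in the C57Bl/6 arrays and 12.02, 11.76, 12.02, 10.89 and 11.73 in the Largemyd arrays. The next steps of the pathway rose as well: C1s1 and C1ra, its proteases, by 1.27 ± 0.13 and 1.19 ± 0.12, C4b by 1.51 ± 0.24 and C2 by 1.05 ± 0.13. Cfb, the protease of the alternative pathway, rose by 1.67 ± 0.22. The brakes Cd55 and Cd59a were at 0.01 ± 0.14 and -0.02 ± 0.18 and did not pass, while Serping1, the inhibitor of C1r and C1s, rose by 0.90 ± 0.11.

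Chemokine genes rose in part. Among 30 chemokines 15 rose and 1 fell, Ccl25, by 0.24 ± 0.07. Those that recruit monocytes rose: Ccl7 by 1.71 ± 0.39, Ccl2 by 1.18 ± 0.38, Ccl6 by 1.66 ± 0.23 and Ccl9 by 1.64 ± 0.21, as did Ccl5, a ligand of T cell and macrophage receptors, by 1.98 ± 0.49, and Cxcl16 by 1.43 ± 0.20. Of the neutrophil attractants Cxcl1, Cxcl2 and Cxcl5 were at 0.23 ± 0.11, 0.08 ± 0.15 and 0.02 ± 0.13 and did not pass. Among 21 receptors 8 rose and 1 fell, and 5 rose with the arrays titled LGPL alone. Ccr2, the receptor for Ccl2 on monocytes, rose by 1.29 ± 0.33. The receptor that fell was Ccrl2, a non-signalling receptor that binds chemerin, by 1.15 ± 0.13.

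Of 29 cytokines and cytokine receptors 13 rose and none fell. Those that rose were mostly receptors. Il13ra1, Il4ra and Il10ra, receptor chains for interleukins that turn macrophages toward repair, rose by 1.51 ± 0.13, 1.06 ± 0.18 and 1.15 ± 0.23. Csf2rb, the shared chain of the receptors for the growth factor GM-CSF and its relatives, rose by 1.75 ± 0.28, and Osmr, the oncostatin receptor, by 1.03 ± 0.15. The classical inflammatory cytokines did not pass: Tnf was at 0.21 ± 0.12, Il1b at 0.27 ± 0.25 and Il6 at 0.41 ± 0.21. For Il6 the 5 Largemyd arrays (4.21 to 4.99) lay above the 5 controls (4.01 to 4.15), as they did for 9.96% of all genes. These values are low, as the medians of the 10 arrays were 7.205 to 7.359.

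Genes of antigen presentation rose in 14 of 16, with a median of 0.78. The class II chains H2-Aa, H2-Ab1 and H2-Eb1 rose by 1.83 ± 0.29, 1.56 ± 0.34 and 1.59 ± 0.28, Cd74, the invariant chain that guides them, by 1.79 ± 0.30, and Ciita, the regulator that switches them on, by 0.80 ± 0.22. H2-Aa measured 10.11, 10.11, 10.96, 10.40 and 9.77 in the C57Bl/6 arrays and 12.04, 12.50, 12.18, 11.80 and 11.99 in the Largemyd arrays, and the groups were apart. With only the Largemyd arrays titled LGPL kept, 8 of the 16 rose. H2-Ea, the class II alpha chain of the E molecule, had the largest rise of any class II gene and an unusual pattern. It measured 5.89, 6.01, 5.97, 6.15 and 5.88 in the C57Bl/6 arrays and 11.59, 12.36, 11.79, 11.36 and 6.07 in the Largemyd arrays. Largemyd replicates 1 to 4 stood more than 5 units above every control, and replicate 5 lay among the controls. Mice of the b haplotype, which C57Bl/6 has, are known not to express H2-Ea. The same animals did not split alike for another gene with 2 levels: Akr1e1, an aldo-keto reductase, measured 4.92, 5.22, 5.02, 5.42 and 5.35 in the C57Bl/6 arrays and 8.22, 8.04, 8.42, 4.80 and 5.29 in the Largemyd arrays, high in replicates 1, 2 and 3 alone.

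Genes of other leukocytes were less even. Of 13 mast cell and eosinophil genes 8 rose, with a median of 0.59. Cpa3, the mast cell carboxypeptidase, measured 8.79, 9.34, 9.32, 9.33 and 8.89 in the C57Bl/6 arrays and 10.80, 11.99, 11.37, 9.46 and 10.45 in the Largemyd arrays and rose by 1.68 ± 0.29. The chymases Mcpt4 and Cma1 rose by 1.70 ± 0.25 and 0.98 ± 0.15 and the tryptases Tpsb2 and Tpsab1 by 1.09 ± 0.19 and 0.64 ± 0.15. The eosinophil granule genes Epx and Prg2 were at -0.75 ± 0.42 and -0.88 ± 0.61 and did not pass. Of 21 T and NK cell genes 6 rose, 11 with the marked arrays left out and none without Largemyd replicate 2 or with the arrays titled LGPL alone. Without C57Bl/6 replicate 1, 2, 4 or 5 or Largemyd replicate 1 or 4 between 1 and 3 of them rose, and 3 with array medians subtracted. Of 18 B cell and lymph node genes 6 rose, 16 with the marked arrays left out. Without Largemyd replicate 2 or with the arrays titled LGPL alone it was 1, without C57Bl/6 replicate 2 or 4 it was 3, and without Largemyd replicate 3 it was 11. Cd3g, a chain of the T cell receptor complex, measured 5.97, 5.95, 7.71, 6.09 and 6.23 in the C57Bl/6 arrays and 9.02, 9.75, 6.57, 8.89 and 7.76 in the Largemyd arrays. It rose by 2.01 ± 0.76 (adjusted p = 0.036), but did not pass without Largemyd replicate 1, 2 or 4 or C57Bl/6 replicate 1, 2, 4 or 5, with a highest adjusted p of 0.12. Ms4a1, which encodes the B cell antigen CD20, measured 6.48, 6.04, 8.10, 6.55 and 6.85 in the C57Bl/6 arrays and 8.58, 10.51, 6.04, 8.73 and 8.28 in the Largemyd arrays and did not pass (1.62 ± 0.92, adjusted p = 0.2). In Ms4a1 Largemyd replicate 2, the array with lymph node genes, was the highest of the 10.

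**Figure D2:**
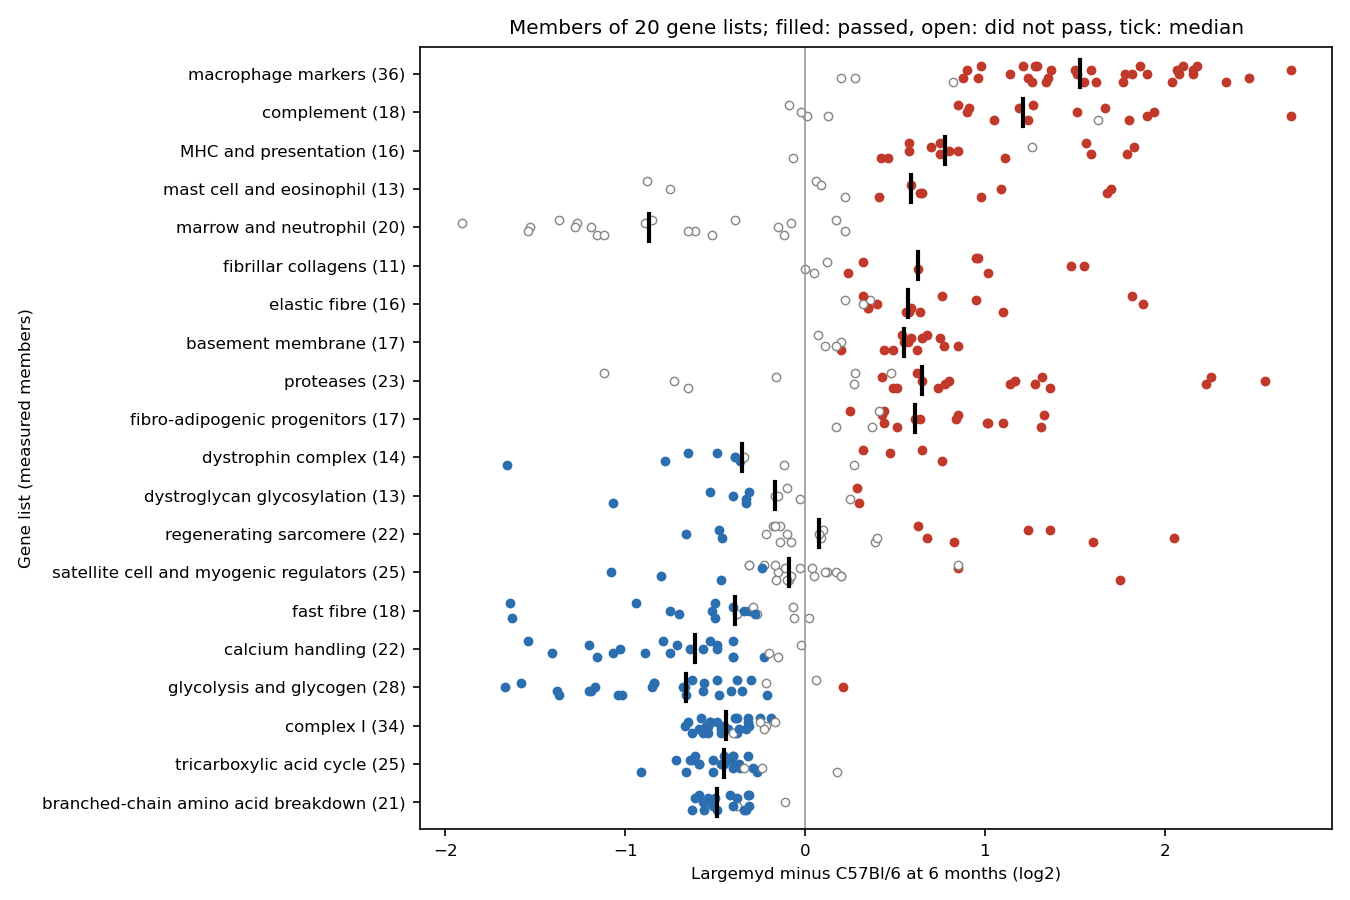
Log2 difference of Largemyd from C57Bl/6 at 6 months (horizontal axis) for every measured member of 20 gene lists (rows); filled points passed the test, open points did not, and the vertical tick is the list's median. Every macrophage member lies to the right of 0, and every calcium handling and complex I member to its left.

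Metallothioneins rose strongly. These small proteins bind zinc and copper, and their genes respond to metal, to glucocorticoid and to inflammation. Mt2 measured 10.58, 10.21, 11.18, 10.22 and 10.12 in the C57Bl/6 arrays and 12.92, 12.98, 12.96, 12.79 and 12.96 in the Largemyd arrays. The Largemyd arrays were close together and above every control, a rise of 2.46 ± 0.24 (adjusted p = 1.3e-11), or 5.49-fold. Mt1 measured 9.56, 9.46, 10.03, 9.53 and 9.48 in the C57Bl/6 arrays and 11.44, 11.52, 11.37, 11.17 and 11.31 in the Largemyd arrays and rose by 1.75 ± 0.26. The 250 bases before both start sites are shown because the genes are neighbours on chromosome 8 and moved together. They are RefSeq sequences of build GRCm38.p6, plus strand, with matches to the metal response core (TGCACNC or TGCGCNC, either strand) in capitals.
Mt2, chr8:94172368-94172617: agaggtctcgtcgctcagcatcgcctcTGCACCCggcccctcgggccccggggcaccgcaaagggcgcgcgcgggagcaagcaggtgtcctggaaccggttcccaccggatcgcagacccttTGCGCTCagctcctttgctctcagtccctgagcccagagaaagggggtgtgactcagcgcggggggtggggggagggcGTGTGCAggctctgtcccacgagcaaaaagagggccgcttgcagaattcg
Mt1, chr8:94178839-94179088: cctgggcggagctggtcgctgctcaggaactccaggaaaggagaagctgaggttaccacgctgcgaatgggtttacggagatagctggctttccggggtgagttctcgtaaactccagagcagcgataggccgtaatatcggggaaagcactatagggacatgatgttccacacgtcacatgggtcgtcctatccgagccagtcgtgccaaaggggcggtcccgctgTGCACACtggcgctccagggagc
Mt2 held 3 matches, 2 forward and 1 reverse, whose first bases lie 223, 128 and 50 bases before the start, and none overlapped. Mt1 held 1, at 23 bases. Matches outside these windows, such as past the RefSeq start, were not counted, so the counts do not compare whole promoters. Of 32851 such windows from RefSeq, 7032 (21.4%) held a match, and 415 (1.26%) held 3 or more. Hal, histidine ammonia-lyase, which breaks down histidine, had the largest rise after Ccl8 among genes whose groups did not overlap. It measured 6.69, 6.45, 6.27, 6.79 and 6.54 in the C57Bl/6 arrays and 10.52, 9.39, 9.93, 8.08 and 8.65 in the Largemyd arrays, and rose by 2.76 ± 0.56. Snord53, a small nucleolar RNA, measured 9.27, 9.37, 9.63, 9.20 and 9.31 in the C57Bl/6 arrays and 11.55, 11.47, 11.22, 11.84 and 11.69 in the Largemyd arrays and rose by 2.20 ± 0.28.

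Collagen genes rose by class. Of 11 fibrillar and associated collagens 8 rose, with a median of 0.63, and 5 with each array's median subtracted. Col3a1, of the early, loose scar, measured 9.71, 9.60, 9.48, 9.42 and 9.32 in the C57Bl/6 arrays and 11.14, 10.86, 11.10, 11.21 and 10.95 in the Largemyd arrays and rose by 1.55 ± 0.17 (adjusted p = 3.6e-10). Col1a1 and Col1a2, the chains of dense scar and tendon, rose by 0.95 ± 0.23 and 1.02 ± 0.19, and Col14a1, which sits on collagen fibres, by 1.48 ± 0.17. The cartilage collagen Col2a1 was at 0.00 ± 0.21. Of 12 network and other collagens 6 rose: Col8a1 by 1.43 ± 0.20 and the collagen VI chains Col6a1, Col6a2 and Col6a3, which tether fibres to the surrounding matrix, by 0.95 ± 0.13, 0.95 ± 0.15 and 1.37 ± 0.18.

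Elastic fibre genes rose in 13 of 16, with a median of 0.57. Fbln7, a cell-adhesive fibulin, measured 8.77, 8.60, 8.67, 8.54 and 8.57 in the C57Bl/6 arrays and 10.73, 10.38, 10.66, 10.09 and 10.71 in the Largemyd arrays. No Largemyd array reached down to a control, and the rise was 1.88 ± 0.17 (adjusted p = 1.1e-12). The microfibril proteins Mfap5 and Mfap2 rose by 1.10 ± 0.15 and 0.95 ± 0.15, and Eln, elastin itself, by 0.59 ± 0.14. The latent TGF-beta binding proteins Ltbp1, Ltbp2 and Ltbp3 rose by 0.32 ± 0.08, 0.56 ± 0.12 and 0.35 ± 0.07.

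Of 14 small proteoglycans and their relatives 11 rose, with a median of 0.71. Lum, lumican, which spaces collagen fibrils, measured 10.31, 10.09, 10.01, 10.12 and 9.92 in the C57Bl/6 arrays and 11.55, 11.54, 11.69, 11.30 and 10.93 in the Largemyd arrays and rose by 1.31 ± 0.19. Vcan, versican of provisional matrix, rose by 1.22 ± 0.16 and Bgn, biglycan, by 0.88 ± 0.10, while Dcn, decorin, which binds TGF-beta, rose by 0.25 ± 0.06 only. Matricellular proteins, which signal from the matrix, rose in 13 of 19. Thbs4 and Comp, relatives abundant at the muscle-tendon junction, rose by 1.35 ± 0.15 and 1.28 ± 0.23, and Fn1, fibronectin, by 1.14 ± 0.14. The YAP and TGF-beta responsive Ccn1 and Ccn2 were at 0.10 ± 0.19 and 0.18 ± 0.19 and did not pass. Tnc, tenascin-C, was at 0.41 ± 0.34 (adjusted p = 0.44).

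The basement membrane, where dystroglycan binds, rose in 13 of 17 genes, with a median of 0.55. Lama2, the laminin chain of the muscle basement membrane and a ligand of dystroglycan, measured 9.74, 9.55, 9.40, 9.71 and 9.69 in the C57Bl/6 arrays and 10.59, 10.05, 10.24, 10.56 and 10.50 in the Largemyd arrays and rose by 0.77 ± 0.14 (adjusted p = 9.3e-06). Lamc1 and Lamb1 rose by 0.55 ± 0.11 and 0.49 ± 0.12. Lamb2 and Lama5 were at 0.11 ± 0.10 and 0.07 ± 0.09 and did not pass. Nid1, which links laminin to collagen IV, rose by 0.75 ± 0.14, Col4a1 by 0.59 ± 0.11 and Hspg2, perlecan and also a dystroglycan ligand, by 0.44 ± 0.12. The Largemyd arrays lay wholly above the controls in 11 of the 17 genes, against 9.96% of all genes, and the risers named were among them. Integrins, the other receptors for the same matrix, gave 12 rises and 2 falls in 29 genes of adhesion. Itgb1 rose by 0.38 ± 0.07 and Itga5, of the fibronectin receptor, by 0.65 ± 0.13. Itga7, the muscle laminin receptor, was at 0.12 ± 0.17 and did not pass, and Tln2, the talin of mature muscle, fell by 0.67 ± 0.13.

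Enzymes that make and cut the matrix rose together. Of 20 genes of collagen processing 13 rose and 1 fell. Lox and Loxl1, which cross-link collagen and elastin, rose by 1.37 ± 0.15 and 1.11 ± 0.14, and Serpinh1, the collagen chaperone, by 0.78 ± 0.14. Of 23 proteases 16 rose, with a median of 0.65. Mmp3 measured 6.72, 6.72, 6.41, 6.93 and 6.32 in the C57Bl/6 arrays and 9.39, 9.19, 8.85, 8.43 and 8.56 in the Largemyd arrays and rose by 2.26 ± 0.20, Mmp12, the macrophage elastase, by 2.23 ± 0.35, Ctss, cathepsin S, by 2.56 ± 0.29, and Mmp2 and its membrane-bound activator Mmp14 by 1.14 ± 0.10 and 1.32 ± 0.12. The neutrophil and marrow proteases Mmp8 and Mmp9 were at -1.12 ± 0.89 and -0.65 ± 0.68 and did not pass. Their inhibitors rose in 9 of 14. Timp1 measured 7.71, 6.65, 7.56, 7.21 and 6.61 in the C57Bl/6 arrays and 9.78, 9.34, 10.25, 9.45 and 9.37 in the Largemyd arrays and rose by 2.49 ± 0.27, Timp2 by 0.66 ± 0.08, and Timp3 was at 0.15 ± 0.12 and did not pass. Serpina3n, a serine protease inhibitor of inflamed tissue, rose by 2.68 ± 0.34 and Serpinb1a by 1.92 ± 0.28.

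Genes of the stromal cells that make this matrix rose as well. Of 17 genes of fibro-adipogenic progenitors, the muscle's resident mesenchymal cells, 14 rose with a median of 0.61. Pdgfra, their defining receptor, measured 9.73, 9.62, 9.41, 9.63 and 9.51 in the C57Bl/6 arrays and 10.65, 10.30, 10.57, 10.15 and 10.46 in the Largemyd arrays and rose by 0.84 ± 0.11. Dpt rose by 1.02 ± 0.15 and Thy1 by 1.01 ± 0.19. Of 12 tendon genes 8 rose, 5 with each array's median subtracted, 5 without Largemyd replicate 3 or C57Bl/6 replicate 3, and 4 with the arrays titled LGPL left out. Cilp rose by 1.82 ± 0.21 and Tnmd, the tendon marker, by 1.29 ± 0.34, while Scx, the tendon transcription factor, was at 0.08 ± 0.17. Of 17 adipocyte genes 10 rose, but 4 with the marked arrays left out, 4 with the arrays titled LGPL alone, 4 without Largemyd replicate 2 and 6 without Largemyd replicate 1. Cebpa measured 8.41, 8.53, 8.43, 8.35 and 8.14 in the C57Bl/6 arrays and 9.84, 9.86, 9.99, 9.63 and 9.03 in the Largemyd arrays and rose by 1.30 ± 0.17, and Pparg, the master regulator of fat cells, by 0.95 ± 0.17. Adipoq, the defining adipokine, was at 0.84 ± 0.41 (adjusted p = 0.11), with 10.30 to 11.02 in controls and 10.72 to 12.03 in Largemyd.

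The counts for other cell types that a powdered calf holds were as follows. Of 23 endothelial genes 7 rose, 2 with array medians subtracted, 3 without Largemyd replicate 4 and 4 with the arrays titled LGPL left out. Of 16 pericyte and smooth muscle genes 6 rose and 2 fell, and 3 rose under each of those settings. Of 16 Schwann cell and nerve genes 5 rose, 3 with array medians subtracted, without Largemyd replicate 2 or C57Bl/6 replicate 2 or 5, or with the arrays titled LGPL alone. Of 11 bone genes 1 rose and 1 fell, of 12 cartilage genes none passed, and of 16 skin genes 1 rose.

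Growth factor genes were examined by family. Of 16 genes of the IGF system 5 rose and 2 fell, against 15.4% and 17.1% of all genes. The falls were 1 without Largemyd replicate 1, 2, 4 or 5 or C57Bl/6 replicate 1 or 4, 3 without C57Bl/6 replicate 3, and 0 with the arrays titled LGPL left out or alone. Igf1, which drives regeneration and is made by macrophages and fibres, measured 9.57, 9.84, 9.69, 9.57 and 9.47 in the C57Bl/6 arrays and 10.84, 10.84, 11.13, 10.45 and 10.45 in the Largemyd arrays and rose by 1.11 ± 0.13 (adjusted p = 1.1e-09), and Igf2, a fetal and regenerative growth factor, rose by 1.44 ± 0.21. Their binding proteins Igfbp4 and Igfbp7 rose by 1.27 ± 0.11 and 0.62 ± 0.07, and the receptor Igf1r was at -0.12 ± 0.14 and did not pass. Mstn, myostatin, which restrains muscle growth, measured 10.72, 10.84, 10.61, 10.67 and 10.54 in the C57Bl/6 arrays and 8.16, 7.34, 8.56, 7.75 and 8.42 in the Largemyd arrays. The groups were far apart and it fell by 2.63 ± 0.30 (adjusted p = 6.9e-10), or 6.19-fold. Of 13 receptors for myostatin and other TGF-beta ligands 4 rose and 5 fell, 3 with the arrays titled LGPL alone. Its receptors Acvr2b and Acvr1b fell by 0.42 ± 0.10 and 0.79 ± 0.12. Of 13 antagonists of these ligands 6 rose and 1 fell: Fst, follistatin, and Fstl1, a follistatin relative, rose by 0.89 ± 0.16 and 0.97 ± 0.16, and Wfikkn2 fell by 1.14 ± 0.12.

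Among 16 TGF-beta ligands 6 rose and 2 fell. Tgfb1, the main profibrotic ligand, measured 8.97, 8.70, 9.32, 8.62 and 8.72 in the C57Bl/6 arrays and 9.82, 9.88, 9.72, 9.19 and 9.47 in the Largemyd arrays and rose by 0.75 ± 0.20, and Gdf10 rose by 0.90 ± 0.11, while Tgfb2 and Tgfb3 were at -0.18 ± 0.13 and 0.11 ± 0.13 and did not pass. Tgfbr2, the ligand-binding receptor, rose by 0.84 ± 0.09. Of 17 transducers and targets 6 rose and 1 fell, with Id2 at 1.19 ± 0.18 and Tgfbi at 0.89 ± 0.11 among the risers. Among 21 Wnt antagonists and targets 4 rose and 3 fell, against 15.4% and 17.1% of all genes. The secreted decoys Sfrp1, Sfrp2 and Sfrp4 rose by 2.31 ± 0.23, 1.25 ± 0.22 and 1.22 ± 0.26, whereas Dkk3 fell by 0.53 ± 0.12. The Wnt target Axin2 was at -0.14 ± 0.09. The Wnt receptor Fzd7, which muscle stem cells carry, fell by 1.16 ± 0.14.

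Of 19 factors that muscle secretes 4 rose and 5 fell. Beside Ostn and Mstn, Vegfa, which maintains capillaries, fell by 0.53 ± 0.11 and Fgf6, a muscle-restricted growth factor, by 0.71 ± 0.19. C1qtnf3 and Angptl4, an inhibitor of lipoprotein lipase, rose by 1.34 ± 0.32 and 1.14 ± 0.26.

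Genes of the complex that dystroglycan belongs to did not move as one. Of 14 members 4 rose and 6 fell, with a median of -0.35, and 2 fell with the arrays titled LGPL alone. Dag1, which encodes both dystroglycan subunits, measured 11.32, 11.48, 11.08, 11.40 and 11.39 in the C57Bl/6 arrays and 11.07, 10.71, 11.16, 10.89 and 11.04 in the Largemyd arrays and fell by 0.36 ± 0.10 (adjusted p = 0.0047), with groups that overlapped. Dmd was at -0.39 ± 0.18 and did not pass (adjusted p = 0.083). Utrn, the dystrophin homologue that can take its place, measured 9.48, 9.42, 9.36, 9.47 and 9.36 in the C57Bl/6 arrays and 9.91, 9.85, 9.93, 10.22 and 9.55 in the Largemyd arrays and rose by 0.47 ± 0.07. Sgca, the sarcoglycan of striated muscle, measured 11.77, 11.90, 11.85, 11.89 and 11.88 in the C57Bl/6 arrays and 11.19, 10.54, 11.28, 10.80 and 11.58 in the Largemyd arrays and fell by 0.78 ± 0.17, and Sgcd fell by 0.65 ± 0.19. Sgce, the sarcoglycan also found outside muscle, rose by 0.65 ± 0.09, and Sntb2, the syntrophin that pairs with utrophin, by 0.76 ± 0.07. Nos1, the nitric oxide synthase that the complex anchors at the membrane, moved most: it measured 10.06, 10.17, 9.77, 10.15 and 10.17 in the C57Bl/6 arrays and 8.08, 7.86, 8.45, 8.61 and 9.06 in the Largemyd arrays and fell by 1.66 ± 0.21 (adjusted p = 1.2e-08), or 3.15-fold.

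Of 13 enzymes that build the dystroglycan sugar chain or its donors 2 rose and 6 fell. B3galnt2 and Pomgnt2, which extend the core that carries the laminin-binding chain, fell by 1.07 ± 0.12 and 0.53 ± 0.09. B3galnt2 measured 10.32, 10.56, 9.99, 10.43 and 10.23 in the C57Bl/6 arrays and 9.08, 8.83, 9.24, 9.55 and 9.50 in the Largemyd arrays, without overlap. Rxylt1, B4gat1 and Pomt1 fell by 0.40 ± 0.09, 0.33 ± 0.09 and 0.33 ± 0.08. Dpm2 and Dpm3, subunits of the enzyme that makes the mannose donor, rose by 0.29 ± 0.09 and 0.30 ± 0.06, and Pomt2 and Pomk were at -0.03 ± 0.07 and -0.10 ± 0.11 and did not pass.

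Some genes of regenerating fibres rose. Of 22 genes of the regenerating or embryonic sarcomere 7 rose and 3 fell, with a median of 0.08. Differences were positive in 12 and negative in 10, down to -0.66, and the members named next are risers. Myh3, the embryonic myosin heavy chain, measured 6.96, 6.80, 6.48, 7.21 and 6.80 in the C57Bl/6 arrays and 8.57, 8.13, 8.39, 8.83 and 8.33 in the Largemyd arrays and rose by 1.60 ± 0.36 (adjusted p = 3.7e-04). Myl4 and Tnnt2, the embryonic light chain and the cardiac troponin T of immature fibres, rose by 1.36 ± 0.15 and 1.24 ± 0.30, and Ankrd1, a stress-sensitive titin-binding protein, by 2.05 ± 0.25. Of 25 myogenic regulators 2 rose and 4 fell, against 15.4% and 17.1% of all genes, and 7 fell with array medians subtracted. Mymk, myomaker, the membrane protein with which myoblasts fuse, measured 7.53, 7.92, 7.79, 7.79 and 7.67 in the C57Bl/6 arrays and 9.48, 9.67, 9.44, 9.37 and 9.49 in the Largemyd arrays and rose by 1.75 ± 0.33, and Myog, which opens terminal differentiation, rose by 0.85 ± 0.27. Pax7, the mark of satellite cells, was at -0.10 ± 0.11 and Myod1 at 0.11 ± 0.23, and neither passed. Cdh15, M-cadherin, fell by 0.80 ± 0.17 and Six4 by 1.08 ± 0.14. In 31 cell cycle genes none rose and 3 fell, and Mki67, the mark of dividing cells, was at 0.08 ± 0.56. The mean over the list was 8.79 in C57Bl/6 replicate 3, the array with marrow genes, against 6.82 to 7.51 in the other controls and 7.32 to 7.63 in Largemyd. With the marked arrays left out 2 cell cycle genes rose and 3 fell, and the median of the list was 0.40 in place of 0.03.

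Of 25 genes of the neuromuscular junction 9 rose and 6 fell. With the arrays titled LGPL left out 4 rose, and with those arrays alone or without Largemyd replicate 2 only 3 fell. The acetylcholine receptor subunits Chrng, of the fetal receptor, Chrna1 and Chrnd rose by 0.82 ± 0.28, 0.78 ± 0.24 and 0.59 ± 0.19, while Chrne, of the adult receptor, was at -0.43 ± 0.21 (adjusted p = 0.11). Runx1, a transcription factor of denervated and regenerating muscle, measured 8.76, 8.32, 9.16, 8.26 and 8.46 in the C57Bl/6 arrays and 10.15, 10.46, 10.26, 10.25 and 10.12 in the Largemyd arrays and rose by 1.66 ± 0.17. Rapsn, which anchors the receptor, fell by 0.60 ± 0.16.

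**Figure D3:**
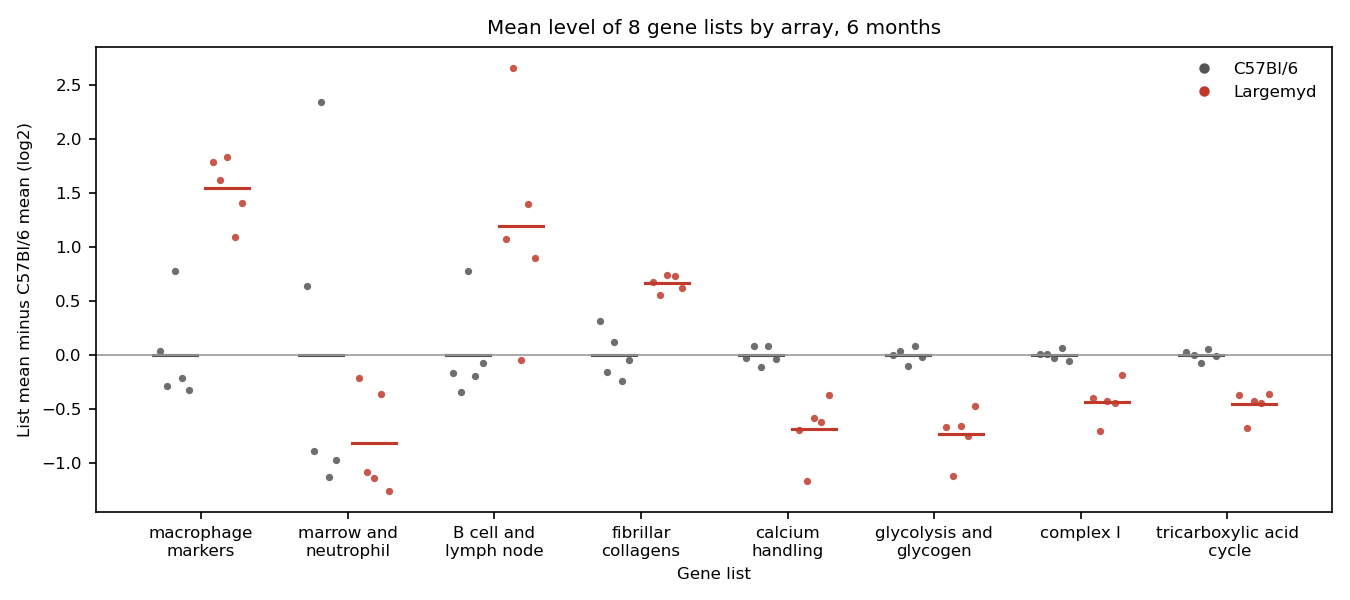
Mean log2 expression over the members of 8 lists in each array, minus the mean of the 5 C57Bl/6 arrays (vertical axis), for C57Bl/6 (grey) and Largemyd (red) at 6 months; each point is 1 array. The macrophage list is higher and the calcium handling, glycolysis, complex I and tricarboxylic acid cycle lists are lower in every Largemyd array, while the marrow list is highest in 1 C57Bl/6 array.

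Genes of the mature fast fibre fell in part. Of 18 fast fibre genes none rose and 12 fell, with a median of -0.39. Of the filament genes Myh4, the fastest myosin, fell by 0.52 ± 0.09, Tnnt3, the fast troponin T, by 0.28 ± 0.05, and Myh1 was at -0.06 ± 0.11 and Mylpf at -0.27 ± 0.13, neither of which passed. The kinases Mylk2 and Mylk4 fell by 1.64 ± 0.26 and 1.63 ± 0.38. Mylk2, which phosphorylates the fast light chain under calmodulin, measured 12.48, 12.63, 12.37, 12.49 and 12.47 in the C57Bl/6 arrays and 10.76, 9.96, 11.05, 10.98 and 11.46 in the Largemyd arrays (adjusted p = 1.3e-06). Mybpc2 and Actn3, the fast myosin binding protein and the fast alpha-actinin, fell by 0.94 ± 0.12 and 0.70 ± 0.08. Of 15 slow fibre genes 2 rose, Sln, which uncouples the calcium pump, by 0.92 ± 0.19 and Tpm3 by 0.68 ± 0.12. Tpm3, a slow tropomyosin, has 4 probe sets, at 0.68, 0.20, 0.18 and 0.17, and did not pass when they were averaged. Myh7, the slow myosin, was at 0.14 ± 0.42 with 10.43 to 11.73 in controls and 11.07 to 11.83 in Largemyd.

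Calcium handling fell as a group: of 22 genes none rose and 19 fell, with a median of -0.61, and 12 fell with the arrays titled LGPL alone. Ryr1, the release channel of the sarcoplasmic reticulum, measured 12.54, 12.63, 12.52, 12.65 and 12.73 in the C57Bl/6 arrays and 11.77, 11.22, 11.68, 11.89 and 12.05 in the Largemyd arrays and fell by 0.89 ± 0.14 (adjusted p = 1.1e-06). Cacna1s, the voltage sensor that opens it, measured 12.40, 12.52, 12.31, 12.52 and 12.55 in the C57Bl/6 arrays and 11.44, 10.89, 11.44, 11.36 and 11.80 in the Largemyd arrays and fell by 1.07 ± 0.16. Stac3, which holds sensor and channel together, fell by 1.20 ± 0.18, and Jph1 and Jph2, which tie the transverse tubule to the reticulum, by 1.16 ± 0.17 and 0.75 ± 0.21. Mrln, myoregulin, a micropeptide that inhibits the calcium pump, had the largest fall of the list, 1.54 ± 0.24, and Clcn1, the chloride channel that quiets the membrane between contractions, fell by 1.41 ± 0.22, with 10.36 to 10.55 in controls and 8.28 to 9.62 in Largemyd. The pump Atp2a1 fell by 0.31 ± 0.05, and the calcium store genes Casq1 and Trdn were at -0.40 and -0.20. Casq1 passed (adjusted p = 0.019) but not without Largemyd replicate 2, when it was at -0.32 (adjusted p = 0.096). Trdn, triadin, did not pass: its 19 probe sets all had negative differences, from -0.08 to -1.65, and the brightest of them was kept.

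Genes of glycogen and glucose use fell nearly as a whole. Of 28 genes 25 fell and 1 rose, with a median of -0.66. Phosphorylase kinase, which starts glycogen breakdown when calcium rises, fell in the 3 subunits of the list: Phkg1 by 1.58 ± 0.22, Phka1 by 1.38 ± 0.22 and Phkb by 0.85 ± 0.17. Phkg1, the catalytic subunit of muscle, measured 11.80, 11.88, 11.65, 11.75 and 11.79 in the C57Bl/6 arrays and 10.42, 9.30, 10.38, 10.20 and 10.69 in the Largemyd arrays (adjusted p = 1.3e-07). Pygm, the phosphorylase itself, fell by 0.56 ± 0.10. Ppp1r3a and Ppp1r1a, regulators of the phosphatase that acts on glycogen enzymes, fell by 1.20 ± 0.16 and 1.37 ± 0.15. Slc2a4, the insulin-dependent glucose carrier, had a mean of 11.93 ± 0.08 (SD, n = 5) in C57Bl/6 and 10.90 ± 0.38 in Largemyd and fell by 1.02 ± 0.18, while Slc2a1, the general carrier, was at 0.06 ± 0.13. Hk2, the muscle hexokinase, fell by 0.84 ± 0.15. The largest fall was in Fbp2, the muscle fructose bisphosphatase, which measured 9.58, 9.63, 8.94, 10.16 and 9.60 in the C57Bl/6 arrays and 7.80, 7.58, 8.18, 7.78 and 8.22 in the Largemyd arrays and fell by 1.67 ± 0.22.

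Mitochondrial genes fell in most members. Of 34 complex I subunits none rose and 29 fell, with a median of -0.44. Ndufs5, an accessory subunit, measured 9.97, 9.80, 9.62, 10.02 and 9.82 in the C57Bl/6 arrays and 9.26, 8.89, 9.28, 8.94 and 9.51 in the Largemyd arrays and fell by 0.67 ± 0.12 (adjusted p = 7.6e-06), and the core subunits Ndufv1 and Ndufs1 fell by 0.56 ± 0.12 and 0.58 ± 0.13. Of 14 genes of complexes II and III 9 fell, all 14 with array medians subtracted and 2 with the arrays titled LGPL alone. Of 18 of complex IV 12 fell and 2 rose, and 6 fell with the arrays titled LGPL alone. The 2 risers, Cox6a1 and Cox8a, by 0.56 ± 0.11 and 0.54 ± 0.09, are the widely expressed forms of subunits whose muscle forms, Cox6a2 and Cox8b, fell by 0.49 ± 0.15 and 0.42 ± 0.12. Cox6a1 measured 9.26, 9.32, 9.39, 9.21 and 9.28 in the C57Bl/6 arrays and 9.92, 10.06, 10.04, 9.74 and 9.50 in the Largemyd arrays. Of 17 of complex V 12 fell.

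Of 25 genes of the tricarboxylic acid cycle and pyruvate entry 22 fell, with a median of -0.45: Pdk2, which restrains pyruvate entry, by 0.91 ± 0.16, Suclg1 by 0.72 ± 0.12 and Cs, citrate synthase, by 0.51 ± 0.10. Breakdown of branched-chain amino acids, in which muscle leads, fell in 19 of 21 genes, with a median of -0.49. Bckdha, a subunit of the enzyme complex that commits them, measured 10.13, 10.16, 9.96, 10.13 and 10.09 in the C57Bl/6 arrays and 9.39, 9.33, 9.53, 9.27 and 9.78 in the Largemyd arrays and fell by 0.63 ± 0.14, and Ppm1k, the phosphatase that activates that complex, fell by 0.59 ± 0.14. Of 29 fatty acid oxidation genes 19 fell and 3 rose, and 1 rose without Largemyd replicate 1, 2 or 3, with array medians subtracted or with the arrays titled LGPL alone. Ucp3 and Ppara, the muscle uncoupling protein and the regulator of fat use, fell by 1.02 ± 0.25 and 0.87 ± 0.19. The carnitine carrier Slc25a20 fell by 0.69 ± 0.14, while Cpt1a, the liver form of the entry enzyme, rose by 0.61 ± 0.17.

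Of 20 regulators of mitochondrial content 11 fell and none rose. Ppargc1a, the coactivator that drives mitochondrial genes in response to exercise, measured 9.88, 10.14, 10.18, 10.25 and 10.68 in the C57Bl/6 arrays and 9.05, 8.59, 9.26, 9.23 and 9.54 in the Largemyd arrays and fell by 1.09 ± 0.33 (adjusted p = 0.0065). The factors of mitochondrial transcription Tfam, Tfb1m and Tfb2m fell by 0.66 ± 0.13, 0.59 ± 0.13 and 0.86 ± 0.12, and the fusion proteins Mfn1 and Mfn2 by 0.93 ± 0.12 and 0.56 ± 0.14. Nrf1 and Sirt1 were at -0.02 ± 0.10 and -0.03 ± 0.14 and did not pass.

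The ubiquitin ligases that mark atrophy fell rather than rose. Fbxo32, atrogin-1, measured 11.49, 11.31, 11.45, 11.11 and 11.39 in the C57Bl/6 arrays and 9.90, 9.17, 9.75, 10.02 and 10.21 in the Largemyd arrays and fell by 1.54 ± 0.42 (adjusted p = 0.003), or 2.92-fold. Klhl38 and Fbxo31 fell by 1.62 ± 0.36 and 1.24 ± 0.26. Trim63, which encodes the ligase MuRF1, was at -1.06 ± 0.38 (adjusted p = 0.026), and did not pass without Largemyd replicate 2 or C57Bl/6 replicate 1 or 2, with a highest adjusted p of 0.079. Over the atrophy list, which also holds Mt1 and Mt2, 5 of 21 rose and 8 fell. Without Largemyd replicate 2 or C57Bl/6 replicate 1 or 2 only 5 fell, and without Largemyd replicate 3 only 3 rose, against 2 with array medians subtracted. Foxo1 and Foxo3, transcription factors that switch these ligases on, were at 0.22 ± 0.18 and -0.20 ± 0.15 and did not pass.

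Of 32 targets of ATF4, the transcription factor of amino acid and stress responses, 9 rose and 10 fell, with a median of 0.01. Without Largemyd replicate 3 or with the arrays titled LGPL left out 5 rose, and 4 with those arrays alone. Chac1, which degrades glutathione, measured 10.61, 10.77, 10.52, 10.72 and 11.07 in the C57Bl/6 arrays and 8.52, 8.26, 8.34, 8.26 and 8.64 in the Largemyd arrays. The groups were more than 1 unit apart and Chac1 fell by 2.33 ± 0.37 (adjusted p = 1.1e-06), or 5.02-fold. Asns, asparagine synthetase, measured 8.49, 8.58, 9.36, 8.38 and 8.41 in the C57Bl/6 arrays and 9.27, 9.36, 9.63, 9.09 and 8.95 in the Largemyd arrays and was at 0.62 ± 0.21 (adjusted p = 0.02), which did not pass without Largemyd replicate 3 or C57Bl/6 replicate 4 or 5, with a highest adjusted p of 0.070. Atf4 itself fell by 0.30 ± 0.09 and Atf3 rose by 0.66 ± 0.21. The windows of Chac1 and Asns are shown because the members moved in opposite directions while both windows hold the core of the site that ATF4 binds with a partner (TGATGNAA, either strand, in capitals). Each is the 250 bases before the RefSeq start in GRCm38.p6, on the strand of the gene.
Chac1, chr2:119350992-119351241, plus strand: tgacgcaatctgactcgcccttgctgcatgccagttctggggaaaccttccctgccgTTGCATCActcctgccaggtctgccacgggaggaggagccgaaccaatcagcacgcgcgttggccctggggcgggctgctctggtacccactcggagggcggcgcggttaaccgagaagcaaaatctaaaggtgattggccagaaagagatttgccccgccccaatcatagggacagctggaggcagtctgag
Asns, chr6:7693210-7693459, minus strand: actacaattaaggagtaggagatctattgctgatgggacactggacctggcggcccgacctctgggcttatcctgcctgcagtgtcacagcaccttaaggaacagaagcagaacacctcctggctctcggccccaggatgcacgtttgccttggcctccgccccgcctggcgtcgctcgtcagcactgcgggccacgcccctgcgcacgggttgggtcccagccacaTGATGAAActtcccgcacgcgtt
The match in Chac1 is reverse, its first base 193 bases before the start, and that in Asns is forward, 23 bases before it. Of the 32851 windows 1134 (3.45%) held this core.

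The other large falls were in genes of varied function. Asb4, which encodes the substrate arm of a ubiquitin ligase, had the smallest adjusted p of all genes (9.4e-18): it measured 8.95, 8.76, 9.04, 8.80 and 9.13 in the C57Bl/6 arrays and 6.86, 6.55, 6.95, 6.73 and 7.07 in the Largemyd arrays and fell by 2.10 ± 0.13. Asb2, its relative, fell by 1.89 ± 0.18. Otub2, a deubiquitinase, fell by 1.95 ± 0.15, and Mss51, a mitochondrial protein of fast fibres, by 1.84 ± 0.33. Plcd4, a phospholipase, measured 10.64, 11.05, 10.88, 10.89 and 10.74 in the C57Bl/6 arrays and 8.76, 7.71, 8.73, 8.16 and 9.30 in the Largemyd arrays and fell by 2.31 ± 0.35. Nt5c1a, which makes adenosine from AMP, fell by 1.68 ± 0.20 and Plaat1, a phospholipid-modifying enzyme, by 1.81 ± 0.28. Mettl11b, a methyltransferase of protein ends, fell by 2.43 ± 0.27, Cyp4f39, a fatty acid hydroxylase, by 2.08 ± 0.21 and St8sia5, a sialyltransferase of gangliosides, by 1.97 ± 0.31. Best3, a bestrophin of muscle, fell by 1.77 ± 0.24 and Tspan8, a tetraspanin, by 1.75 ± 0.20. These 12 genes were chosen among those whose groups did not overlap, so their lack of overlap is not a result.

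Of 296 measured miRNA genes 10 fell and 2 rose, against 17.1% and 15.4% of all genes, with a median of 0.02. Some genes of muscle miRNAs were among those that fell. No list of muscle miRNAs was drawn up, and the others are not given here. Mir133a-1 measured 7.99, 7.87, 7.67, 7.91 and 6.94 in the C57Bl/6 arrays and 5.01, 5.36, 6.97, 6.44 and 6.54 in the Largemyd arrays and fell by 1.61 ± 0.34 (adjusted p = 1.2e-04), and its second copy Mir133a-2 fell by 0.81 ± 0.20. Mir1a-2 was at -1.37 ± 0.46 (adjusted p = 0.017), and did not pass without C57Bl/6 replicate 1 or 3, with a highest adjusted p of 0.085, or with both marked arrays left out. Mir181b-2 and Mir1839 are shown with Mir181a-2, the neighbour of Mir181b-2, because they let the seed be read: bases 2 to 8 are in capitals.
miR-181a-5p, chr2:38852741-38852763: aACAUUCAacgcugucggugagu
miR-181b-5p, chr2:38853845-38853868: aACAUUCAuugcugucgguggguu
miR-1839-5p, chr7:81529919-81529940: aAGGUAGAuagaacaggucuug
The sequences are from RefSeq, build GRCm38.p6, plus strand, and the first and the second share the seed ACAUUCA. Mir181b-2 measured 7.41, 7.92, 7.19, 7.72 and 7.68 in the C57Bl/6 arrays and 6.5, 6.13, 6.81, 6.38 and 7.12 in the Largemyd arrays and fell by 1.00 ± 0.21 (adjusted p = 1.1e-04). Mir181a-2 was at -0.29 ± 0.13 (adjusted p = 0.093) and did not pass. Mir1839 fell by 0.72 ± 0.20. The probe sets name the miRNA gene, and the mature RNA was not measured apart from its precursor.

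Largemyd was then set against Dmdmdx, the line without dystrophin, at the same age, a comparison that shares the Largemyd arrays with that above. Of 19938 genes 2843 passed (14.3%), 1209 higher (6.06%) and 1634 lower (8.2%) in Largemyd. Without Largemyd replicate 2 it was 1677, with the arrays titled LGPL alone 1194, and with the marked arrays left out 2700. With array medians subtracted the higher share of the calls was 26.8% against 42.5%. Of 36 macrophage genes none was higher and 1 lower, with a median of -0.27, and Cd68 was at -0.46 ± 0.28. The fibre and energy lists differed among themselves. Of 18 fast fibre genes 14 were lower and none higher, of 22 calcium handling genes 17 were lower, of 28 of glycolysis 16 were lower and 3 higher, and of 34 complex I subunits 14 were lower. Of 25 genes of the tricarboxylic acid cycle 11 were lower and 1 higher, of 18 of complex IV 4 were lower and 1 higher, and of 14 of complexes II and III 3 were lower. Branched-chain amino acid breakdown had 1 of 21 lower, with a median of -0.03, and fatty acid oxidation 2 of 29 lower and 1 higher, with a median of -0.05. Without Largemyd replicate 2 the lower counts were 11 for fast fibre genes, 9 for calcium handling, 9 for glycolysis and 4 for complex I. With the arrays titled LGPL alone they were 9, 7, 3 and 3, and complex I had 8 with the Xist class as a block. Nt5c1a was lower by 1.47 ± 0.20, Chac1 by 1.78 ± 0.37 and Plcd4 by 1.81 ± 0.35. Dmdmdx held 10.18 ± 0.43 (mean and SD, n = 5) for Chac1 against 8.41 ± 0.17 in Largemyd.

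Fat and elastic fibre genes were higher in Largemyd than in Dmdmdx. Of 17 adipocyte genes 14 were higher, with a median of 1.22. Fasn, fatty acid synthase, was higher by 2.64 ± 0.31 (adjusted p = 6.1e-08), with 12.04 ± 0.67 in Largemyd against 9.40 ± 0.49 in Dmdmdx. Against C57Bl/6 the difference of Fasn was 0.90 ± 0.31 (adjusted p = 0.02) and did not pass without Largemyd replicate 1 or 2 or C57Bl/6 replicate 1 or 5. With the arrays titled LGPL alone 10 adipocyte genes were higher. Of 16 elastic fibre genes 8 were higher, 5 without Largemyd replicate 3 or with the arrays titled LGPL alone and 4 with those arrays left out, and of 13 mast cell and eosinophil genes 5. H2-Ea was higher by 4.76 ± 0.89 and Hal by 2.74 ± 0.56. The immunoglobulin segments Igkv10-96 and Igkv9-120, of antibody-making cells, were higher by 3.39 ± 0.92 and 2.67 ± 0.83. Neither passed without Largemyd replicate 2, the array with lymph node genes, and Igkv9-120 did not pass without Dmdmdx replicate 1 or 3, with a highest adjusted p of 0.13. With the Xist class as a block, which was high in 3 of 5 Largemyd and 1 of 5 Dmdmdx arrays, Igkv9-120 was at 2.39 (adjusted p = 0.059) and did not pass. Among genes that passed, with predicted genes left out, the lowest against Dmdmdx was Mir1a-2, by 1.91 ± 0.46. Akr1e1 was lower by 1.48 ± 0.43 and did not pass without Largemyd replicate 4 or 5, with a highest adjusted p of 0.11.

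The change of these differences with age was tested as the difference from C57Bl/6 at 6 months minus that at a younger age. Both tests share the 10 arrays of 6 months. Xist class moved with age. At 21 days every C57Bl/6 and Largemyd array was low in Xist. At 3 months all of them were low but C57Bl/6 replicate 5, at 10.60. Most arrays of 6 months were high, so age and Xist class cannot be fully told apart. With the class as a block, 98 genes passed against 3 months and 2263 against 21 days. Against 3 months 82 genes passed (0.411%), 14 higher (0.0702%) and 68 lower (0.341%). This count rests on single arrays: at 6 months it was 10 without Largemyd replicate 2, 333 without Largemyd replicate 5, and 48, 16, 148 and 14 without C57Bl/6 replicates 1, 2, 3 and 4. At 3 months it was 14, 25 and 37 without Largemyd replicates 2, 3 and 4, and 27 and 44 without C57Bl/6 replicates 3 and 4. With array weights it was 1371 and with the arrays of the 4 groups alone 37. Mcpt4, the chymase of connective tissue mast cells, differed from C57Bl/6 by -0.02 ± 0.25 at 3 months and 1.70 ± 0.25 at 6 months, a change of 1.72 ± 0.35 (adjusted p = 0.017), or 1.46 (adjusted p = 0.072) without Largemyd replicate 2 of 6 months. Cma1, another mast cell chymase, went from -0.04 ± 0.15 to 0.98 ± 0.15, a change of 1.02 ± 0.21, and did not pass without Largemyd replicate 2 of either age, with a highest adjusted p of 0.083. Cpa3 and Tpsb2 changed by 1.5 ± 0.42 and 1.02 ± 0.26 and did not pass (adjusted p = 0.072 and 0.057). Utrn went from -0.05 ± 0.07 to 0.47 ± 0.07, a change of 0.53 ± 0.10 (adjusted p = 0.014). Rgs13, a regulator of G protein signals in mast and B cells, Ndnf and Snord53 changed by 0.99 ± 0.22, 0.96 ± 0.21 and 2.05 ± 0.39. Rgs13 and Ndnf did not pass without Largemyd replicate 2 of either age or without C57Bl/6 replicate 4 of 6 months. Rgs13 was lost without Largemyd replicate 3 of 3 months and Ndnf without C57Bl/6 replicate 2 of 6 months, with highest adjusted p-values of 0.073 and 0.083. Utrn and Snord53 passed without any 1 of the 20 arrays.

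Mybph, a myosin binding protein of fast fibres, went from 0.36 ± 0.26 at 3 months to -1.26 ± 0.26 at 6 months, a change of -1.62 ± 0.37, which passed in 11 of the 20 fits without 1 array. Mical2, which oxidises actin, changed by -1.5 ± 0.22, Lrtm1 by -1.38 ± 0.31 and Casr, the calcium-sensing receptor, by -1.21 ± 0.23. Lrtm1 passed in 13 of those fits, and Mical2 and Casr in all 20. Fbp2 went from -0.37 ± 0.22 to -1.67 ± 0.22, a change of -1.30 ± 0.32 (adjusted p = 0.042), which passed in 5 of the 20 fits. Ostn and Fbxo32 changed by -0.96 ± 0.37 and -0.64 ± 0.60 and did not pass (adjusted p = 0.23 and 0.74). Of 18 fast fibre genes 2 passed, both lower, Actn3 by 0.56 ± 0.12 and Mybpc2 by 0.84 ± 0.17, and neither did without Largemyd replicate 2 of 6 months. Actn3 did not pass without C57Bl/6 replicate 2 or 4 of that age. Of 36 macrophage genes none passed, and Cd68 changed by -0.31 ± 0.39 from 2.39 ± 0.28 at 3 months.

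Against 21 days 2129 genes passed (10.7%), 1218 higher (6.11%) and 911 lower (4.57%), and 1323 with the arrays titled LGPL alone. The ages sat at different levels: medians of the C57Bl/6 and Largemyd arrays were 6.555 to 6.642 at 21 days and 7.205 to 7.359 at 6 months. Whether a difference in scale between the ages bears on this count was not tested. Fbxo32, which differed from C57Bl/6 by 1.04 ± 0.42 at 21 days, changed by -2.59 ± 0.60 (adjusted p = 0.0027). Ostn went from -0.93 ± 0.26 at 21 days to -3.16 ± 0.26 at 6 months, a change of -2.23 ± 0.37. Mettl11b, Cyp4f39 and Myh8, the perinatal myosin, changed by -2.21 ± 0.39, -2.19 ± 0.30 and -2.09 ± 0.35. Sfrp1 rose from 0.57 ± 0.23 to 2.31 ± 0.23, a change of 1.74 ± 0.32. Pla2g2d, Cmah and Snord53 changed by 2.21 ± 0.58, 1.71 ± 0.46 and 1.73 ± 0.39. C57Bl/6 replicate 2 of 21 days held lymph node genes at 3.23 above the median of its age, and with the marked arrays left out Pla2g2d changed by 1.32 (adjusted p = 0.021). With the arrays titled LGPL alone Pla2g2d and Cmah did not pass, with adjusted p-values of 0.053 and 0.066. Cd28, a costimulatory receptor of T cells, changed by 1.78 ± 0.21 from -1.59 ± 0.15 at 21 days, although its difference at 6 months was 0.20 ± 0.15 and did not pass.

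**Figure D4:**
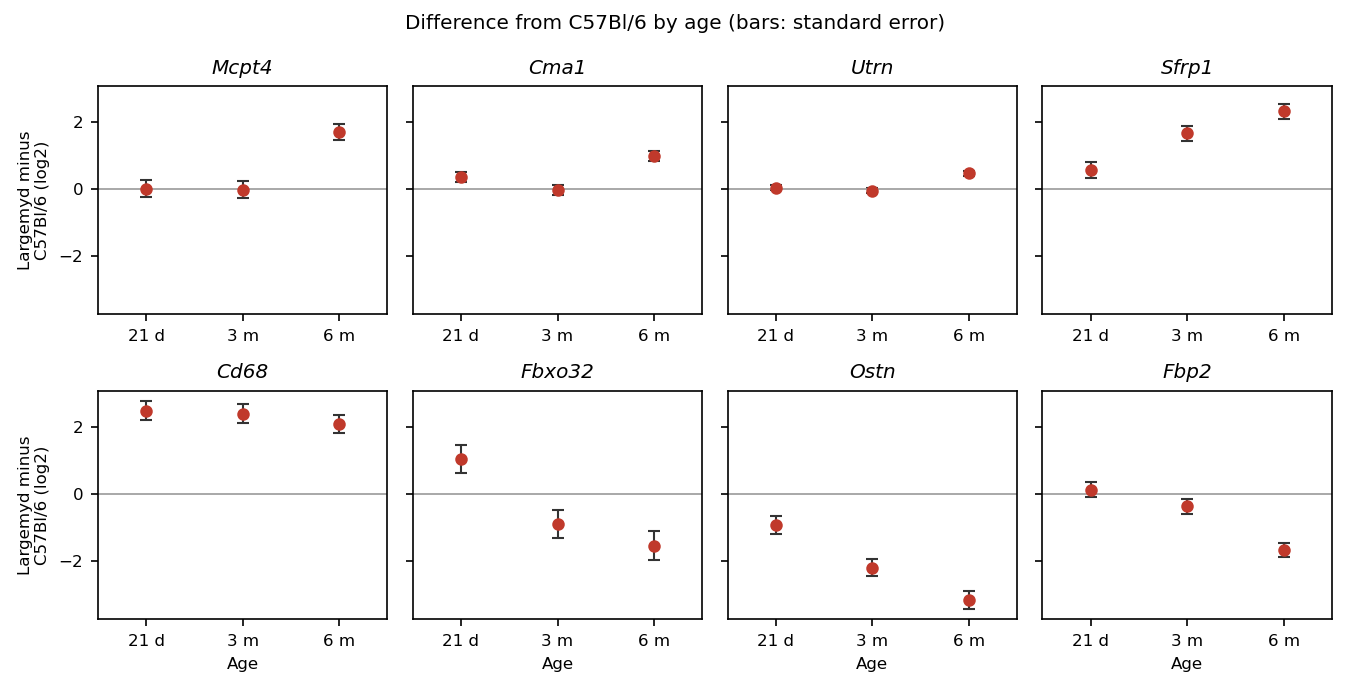
Difference of Largemyd from C57Bl/6 (vertical axis, log2) at 21 days, 3 months and 6 months for 8 genes, each from 5 arrays against 5; bars are standard errors from the fit. The mast cell chymases Mcpt4 and Cma1 and Utrn lie highest at 6 months, and Fbxo32, Ostn and Fbp2 lie lowest then. For Fbxo32 and Ostn the change from 3 months did not pass.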

How the data were processed

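RNA of calf muscle from 60 mice was hybridised to 1 array each, 5 animals for each line and age, per the series' design. The deposited values are log2 expression that the authors made by RMA in Affymetrix Expression Console, per the submitters' processing notes, with versions not given in the sources used here. No column repeats another. Of 35556 probe sets 21789 had 1 gene symbol, 1621 had several and 12146 had none, by the platform annotation, and 21698 of the first kind were matched to a current symbol by their Entrez identifier. The probe set with the highest mean was kept for each of 19938 genes, 999 of which had several.

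Group means of the 12 groups were fitted on all 60 arrays with limma 3.58.1 (R 4.3.3; lmFit, eBayes, 48 residual degrees of freedom), tested on simulated data, with Python 3.11.15, pandas 2.3.3 and matplotlib 3.10.9 for tables and figures. Adjusted p-values are Benjamini-Hochberg over all genes of a comparison, and 0.05 was the threshold. Ages were set against each other only through differences within each age. The bar for marking an array for another tissue was a list mean over 2 log2 units higher than the median of all arrays of that age, and arrays were classed by Xist at 8 log2 units.

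The groups, the 71 gene lists and the alternatives (arrays in the fit, scaling, array weights, variance trend, dim genes, probe sets, Xist class, marked arrays, LGPL titles, each array left out) were chosen with earlier results of these data known. Genes named are the 15 largest rises and falls that passed without overlap, the 5 largest each way in the other comparisons, Dmd, Utrn and Dag1, up to 8 members that passed in each list described, and members named for their role. Of 296 miRNA genes 271 were found in the RefSeq table. One further gene is not reported here.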

Additional observations from a re-analysis of the deposited data

Results flagged for a closer look

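Single arrays stood apart from the other 4 of their group in 37 of the 612 groups of 5 examined, 1 group for each named gene and line at 6 months, by a gap larger than Dixon's critical value for 5 values. That is 6.0%, and chance flags about 1 in 20 groups. The array that stood apart was C57Bl/6 replicate 3 in 18 of them and Largemyd replicate 2 in 7. C57Bl/6 replicate 3 is the 1 low-Xist control and holds the marrow genes, and Largemyd replicate 2 holds the lymph node genes. The part of either feature in these values was not tested.

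C57Bl/6 replicate 3 lay above the other controls in immune and stress genes. Ly86, an accessory protein of a lipopolysaccharide receptor, was at 9.74 there against 8.32 to 8.58, and Cd3g at 7.71 against 5.95 to 6.23. It stood above in the same way at 8.74 for Gpnmb, 8.08 for Glipr1, 9.24 for C1qc, 10.03 for Mt1, 8.68 for Ctss, 9.53 for Serpinb1a, 10.92 for Cox8a and 9.36 for Asns. It lay below the other controls in Ostn, at 9.95 against 11.07 to 11.48, and in Mybph, at 9.55 against 10.89 to 11.34. It was also lowest at 8.34 for Col14a1, 10.26 for Lamb2, 10.20 for Fstl1, 10.05 for Tgfb3, 9.77 for Nos1 and 9.53 for Lrtm1. C57Bl/6 replicate 2 was lowest in Bgn at 11.66 and in Dkk3 at 7.89, and highest in Fzd7 at 10.77, Asb2 at 12.28 and Cd28 at 7.70. Mfap2 was lowest in C57Bl/6 replicate 5, at 8.81, and Vegfa in C57Bl/6 replicate 4, at 10.83.

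Among the Largemyd arrays, replicate 5 was at 6.07 for H2-Ea against 11.36 to 12.36 in the others. Replicate 4 was lowest for the macrophage genes Cd68, at 9.63 against 10.69 to 11.02, and C1qb, at 10.89 against 11.73 to 12.02. It was lowest in Dpm3 at 9.32 and highest in Lama5 at 8.87. Replicate 2 was highest in Ciita at 8.67, Irf8 at 10.63 and Ltbp2 at 8.69. It was lowest for the myosin gene Myh4, at 12.33 against 12.84 to 13.03, and for Tfb1m at 8.28, Tfb2m at 8.94 and Lamb2 at 10.50.

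The difference from C57Bl/6 at 6 months minus that at 3 months passed limma's test in 82 genes. Of the genes named it was higher at 6 months by 2.05 for Snord53, 1.72 for Mcpt4, 1.02 for Cma1, 0.99 for Rgs13, 0.96 for Ndnf and 0.53 for Utrn. In others it was lower, with changes of -1.62 for Mybph, -1.5 for Mical2, -1.38 for Lrtm1, -1.30 for Fbp2, -1.21 for Casr, -0.84 for Mybpc2 and -0.56 for Actn3. The same test against 21 days passed in 2129 genes. Changes there were 2.21 for Pla2g2d, 1.78 for Cd28, 1.74 for Sfrp1, 1.73 for Snord53 and 1.71 for Cmah, and, in genes that were lower, -2.59 for Fbxo32, -2.23 for Ostn, -2.21 for Mettl11b, -2.19 for Cyp4f39 and -2.09 for Myh8.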

How the results depend on the processing

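Of the 257 named genes that passed against C57Bl/6, all kept their direction and their call with array weights, with a variance trend and with the Xist class as a block. One call each was lost with array medians subtracted, with all probe sets averaged and with the arrays of the same age alone, 2 with the marked arrays left out, 4 with the arrays of the compared groups alone, 9 at the lower bar for other tissue, 10 with the high-Xist arrays alone, 11 without the arrays titled LGPL and 25 with those arrays alone. Leaving out 1 array at a time lost 33 of 2570 calls. With the low-Xist arrays alone 167 lost their call and Asns, Igkv10-96 and Igkv9-120 turned to -0.25, -0.39 and -1.96. Xist itself turned to 0.67 with its class as a block, a value that compares arrays within classes drawn from Xist itself. The count of genes that passed against C57Bl/6 was 661 with the low-Xist arrays alone, where 1 control remains, 5619 to 6614 without 1 array, and 4816 to 7675 under the others. Against Dmdmdx it was 1194 with the arrays titled LGPL alone, where fewer arrays remain, and 1677 to 2966 without 1 array.

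The count for 6 months minus 3 months was 37 with the arrays of the 4 groups alone, 1371 with array weights, 173 with dim genes left out, 186 with the marked arrays left out, 468 without the arrays titled LGPL, 12 with those arrays alone, and 10 to 333 without 1 array; the cause was not tested. The count for 6 months minus 21 days was 1323 with the arrays titled LGPL alone and 1669 to 2499 without 1 array. With array medians subtracted, which moves the median difference of all genes to -0.08 against C57Bl/6 and from 0.04 to -0.01 against Dmdmdx, the share of calls that were higher was 33.9% in place of 47.4% against C57Bl/6 and 26.8% in place of 42.5% against Dmdmdx. A lower bar of 1.5 log2 units for marks of other tissue, chosen after seeing the data, left 5767 genes. No paired analysis was possible because the titles of the Largemyd arrays of 6 months share no animal number with those of the C57Bl/6 or Dmdmdx arrays of that age. The number of arrays limits the precision, and probes near background have compressed differences.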

Other observations

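Genes of the lysosome, where macrophages digest what they engulf, were raised. Of 26 genes of the lysosome and of lipid handling in phagocytes 19 rose and 3 fell, with a median of 0.72 against -0.00 over all genes. Lgmn, a lysosomal protease, measured 9.97, 9.84, 10.04, 9.81 and 9.70 in the C57Bl/6 arrays and 11.52, 11.24, 11.55, 11.02 and 11.28 in the Largemyd arrays and rose by 1.45 ± 0.16 (limma adjusted p = 6.6e-10). Lipa, the acid lipase, rose by 1.41 ± 0.20 and Apoe, the carrier of exported cholesterol, by 1.39 ± 0.16. Those that fell included Tfeb, the transcription factor of lysosomal genes, by 0.78 ± 0.08, and Gaa, the acid glucosidase that breaks down glycogen in the lysosome, by 0.80 ± 0.15. Of 26 interferon-induced genes 9 rose and none fell, with a median of 0.40. Ifi27l2a measured 8.38, 8.66, 8.80, 8.46 and 8.12 in the C57Bl/6 arrays and 10.64, 10.54, 10.56, 9.39 and 9.59 in the Largemyd arrays and rose by 1.66 ± 0.30, Irf8, a transcription factor of myeloid cells, rose by 1.14 ± 0.28, and the antiviral Rsad2 was at -0.80 ± 0.38 and did not pass.

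Of 19 genes of the unfolded protein response, which cells with a heavy secretory load raise, 10 rose and 2 fell. Edem1 and Pdia4, of protein folding and disposal in the reticulum, rose by 0.91 ± 0.18 and 0.86 ± 0.14, and Herpud1 fell by 0.68 ± 0.10. Of 23 antioxidant genes 5 rose and 4 fell, against 15.4% and 17.1% of all genes. Without Largemyd replicate 2 or with the arrays titled LGPL alone 3 rose. Gpx8, a peroxidase of the reticulum, rose by 1.20 ± 0.12, and Nqo1, a quinone reductase, measured 9.23, 9.32, 9.0, 9.41 and 9.43 in the C57Bl/6 arrays and 8.35, 7.48, 8.61, 7.91 and 8.41 in the Largemyd arrays and fell by 1.13 ± 0.16. Of 7 polyamine genes 2 rose and 2 fell. Sat1, which starts polyamine breakdown, rose by 0.70 ± 0.15, and Smox, spermine oxidase, measured 10.44, 10.88, 11.66, 10.68 and 10.64 in the C57Bl/6 arrays and 9.71, 9.12, 9.46, 9.55 and 10.83 in the Largemyd arrays and fell by 1.13 ± 0.23 (limma adjusted p = 1.2e-04).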
